A study of Mus musculus with 70 samples.

Results

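The genes described are 10 transcripts of the endoplasmic reticulum (ER) stress and integrated stress response: Hspa5, Ddit3, Atf4, Trib3, Xbp1, Asns, Chac1, Sdf2l1, Herpud1 and Dnajb9. They were chosen by name, as the genes of this response with a non-control probe on the array, and they are 10 of the 21154 gene symbols the array names. RENCA is a mouse renal carcinoma line of BALB/c origin. Here a GFP-expressing derivative was passaged serially in female BALB/c mice that were 6 weeks old, and total RNA of the recovered cells was hybridised to single-colour (Cy5) Agilent arrays. The parental cells, called P0, were 2 samples. The kidney primary tumour route (KPT) took cells injected under the renal capsule and recovered from the kidney tumour, with 5, 2, 2, 3, 5 and 5 samples at passages P1 to P6. The tail vein route (T-LM) took lung metastases after intravenous injection, with 5, 2, 3, 4, 6 and 4 samples. The kidney to lung route (K-LM) took lung metastases that arose after kidney injection and placed them under the renal capsule again, with 1, 1, 5, 3, 4 and 3 samples. All groups carry the GFP transgene and descend from 1 parental line, and tissue was dissociated and the cells were cultured before RNA was taken. The labels do not tie samples to individual animals, so the p-values below measure only the spread between these samples, and 1 sample of T-LM P1 carries no replicate number in its title.

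Proteins that fold badly in the ER draw away the chaperone Hspa5 (BiP) from 3 sensors in the ER membrane, Ern1, Atf6 and Eif2ak3. Ern1 splices the mRNA of the transcription factor Xbp1, and Atf6 is cut to release a transcription factor. Both raise chaperones and the machinery that exports misfolded proteins for degradation. Eif2ak3, and the kinases that sense amino acid shortage, haem lack and double-stranded RNA, phosphorylate the initiation factor eIF2. General translation then falls while Atf4 mRNA is translated more. Atf4 raises amino acid synthesis and transport genes, and also Ddit3 (CHOP), Trib3 and Chac1, which take part in feedback and cell death. Tumours in poorly perfused tissue are known for engaging this response. An mRNA array reads transcript amounts and not Xbp1 splicing, eIF2 phosphorylation or Atf4 protein.

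The 2 arms read different promoter elements, so promoter stretches with such an element are shown for 4 genes that the results return to. All 10 genes matched a RefSeq promoter (GRCm38.p6, 250 bases before to 50 bases after the start). The ER stress response element, searched on both strands as CCAAT, then 9 bases of any kind, then CCACG, was found in 0.119% of 32851 promoters and in 1 of the 10 genes, Hspa5. The Atf4 type element, searched as TGATGNAAN on both strands, was found in 3.95% of promoters and in 4 of the 10 genes, Trib3, Asns, Chac1 and Herpud1. In Trib3 it lay 13 bases after the start. The Hspa5 stretch is chr2:34772005-34772063 on the plus strand, from 85 to 27 bases before the start. The Chac1 stretch is chr2:119351028-119351076 on the plus strand, 214 to 166 bases before the start. The Herpud1 stretch is chr8:94386296-94386344 on the plus strand, 133 to 85 bases before the start. The Asns stretch is chr6:7693210-7693252 on the minus strand, 43 to 1 bases before the start. Each is written along the gene, and the capitals mark the match. In Chac1 and Herpud1 the match lay on the opposite strand and reads in reverse complement.
Hspa5: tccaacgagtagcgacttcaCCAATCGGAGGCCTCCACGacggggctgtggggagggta
Chac1: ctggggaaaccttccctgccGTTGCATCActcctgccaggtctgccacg
Herpud1: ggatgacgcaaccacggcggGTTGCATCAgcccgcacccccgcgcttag
Asns: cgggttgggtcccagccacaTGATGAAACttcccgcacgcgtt

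The closing letters of the ER stress element alone, CCACG, was found in 7 of the 10 genes and in 32.8% of all promoters. The Xbp1 type core TGACGTGG was found in 0 of the 10 and in 0.676% of all promoters, and the stricter Atf4 type form TGATGCAAT in 0 of the 10 and in 0.192%. A match is a description of letters, and a missing match says only that these letters do not lie in this window.

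Levels are log2 signal of 1 probe relative to the 75th percentile of its array, so a level of 0 is as bright as that percentile and a difference of 1 is a doubling. Levels of different genes are not comparable with each other, because each probe has its own brightness. All 10 genes were well above background on every array that measured them. Renal epithelial markers Krt8, Krt18 and Pax8 were above background on all arrays of P0 and of the 3 P6 groups, while Pax2 and Lrp2 were above it on none of the 70 arrays. The 7 fibroblast markers moved with passage: their summed level was -4.78 to -4.52 at P0, with 0 of 7 above background on all arrays and Pdgfra, Pdgfrb and Lum on none. At P6 it was -0.79 to 0.35 in KPT samples, 1.20 to 2.96 for T-LM and 0.09 to 1.67 for K-LM, with 5, 6 and 5 of 7 above background on all arrays. The summed level of 10 leukocyte markers was 1.46 to 1.70 at P0 and at least 1.76 in every P6 sample. Ptprc, Adgre1, Tyrobp and Fcer1g were above background on no P0 array and on no K-LM P6 array, and Adgre1 on no KPT P6 array. Cd68, Csf1r, Cd14, Itgam and Cd74 were above it on all arrays of P0 and of the 3 P6 groups. The part of other cells in the results below was not tested, and in bulk samples fewer cells of a type and less RNA per cell cannot be told apart. An index of long against ribosomal protein mRNAs, a measure that can move with RNA quality, averaged -4.99 at P0, -4.18 in KPT P1, -3.93 in T-LM P1 and -5.22 to -4.76 in the P6 groups, but -6.94 to -5.81 in those of P2, P3 and P5. Over the 65 samples its Pearson correlation with the level was -0.52 for Atf4, -0.45 for Ddit3 and -0.41 for Hspa5. It was -0.41 for Dnajb9, 0.49 for Chac1 and between -0.21 and 0.24 for the other 5, as a description. With group means removed it was -0.55 for Atf4, -0.52 for Sdf2l1, -0.48 for Hspa5 and 0.28 for Chac1. For the rest it then lay between -0.15 and 0.07.

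A change was called at a Benjamini-Hochberg adjusted p of at most 0.01 over all probes tested. Ddit3, the stress-induced transcription factor that takes part in cell death, was the 1 gene of the 10 that rose from P0 to P6 in all 3 routes. Its level was -1.40 and -1.25 in the P0 samples, and all 63 passaged samples lay above both of these averaged levels. At P6 it was 0.26, 0.35, 0.50, 0.31 and 0.34 in KPT. The T-LM samples were at 0.63, 0.08, 0.54 and 0.59, and those of K-LM at 0.27, 0.12 and -0.21. No P6 sample overlapped P0, and K-LM P6 held the only value below 0. The rise was 1.70 ± 0.24 (SE) on the log2 scale in KPT, or 3.25-fold (limma, adjusted p = 0.000192). It was 1.80 ± 0.34 for T-LM (limma, adjusted p = 0.00125) and 1.39 ± 0.27 for K-LM (limma, adjusted p = 0.00162). The 3 routes share the same 2 P0 samples. Without P0 replicate 1 the rise was 1.50 in KPT (limma, adjusted p = 0.0141) and 1.59 in T-LM (limma, adjusted p = 0.0426), neither of which passes that threshold. Scaling by all probes gave 1.58 in T-LM (limma, adjusted p = 0.0112). In K-LM the rise was 1.35 without P0 replicate 1 (limma, adjusted p = 0.0275), 1.44 without P0 replicate 2 (limma, adjusted p = 0.0207) and 1.29 without K-LM P6 replicate 1 (limma, adjusted p = 0.0117), and none of these passes.

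The Ddit3 level was already higher at the first kidney passage. In KPT P1 it was 0.13, -0.29, 0.36, 0.05 and 0.38, all above P0, and the change from P0 was 1.47 ± 0.24 (limma, adjusted p = 0.000725; adjusted p = 0.0366 without P0 replicate 1, and 0.0194 in a fit of only these groups). T-LM P1 was spread wider, at 0.88, -1.15, -1.19, 0.01 and -0.10. Of its 5 samples, 2 lay just above the P0 range and the other 3 well above it. The order of those 2 against P0 holds for the averaged P0 levels only. The change there was 1.03 ± 0.43 (limma, adjusted p = 0.135). The single K-LM P1 sample was at -0.85. From P2 on, levels stayed between -0.21 and 1.59 in all routes. The 5 samples of KPT P5 were at 0.61 to 0.97, and every KPT P6 sample lay below every P5 sample. In K-LM the 5 samples of P3 were at 1.35, 0.73, 0.29, 1.03 and 0.99 and those of P6 did not overlap them, with a change of -0.81 ± 0.25 (limma, adjusted p = 0.0347) that did not pass.

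**Figure D1:**
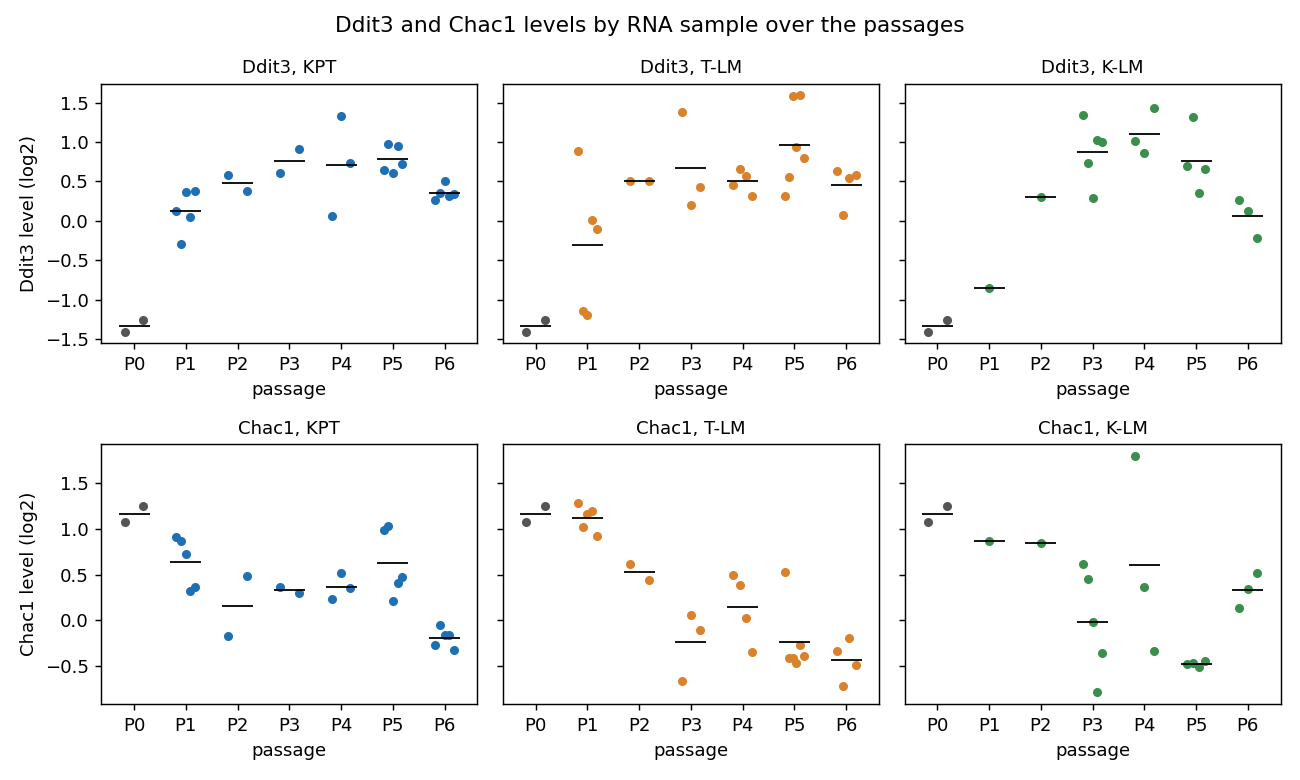
Level of Ddit3 and Chac1 (log2 signal relative to the array's 75th percentile, vertical axis) by passage (horizontal axis) along each route, with 1 point per RNA sample and a bar at each group's mean. With repeat arrays averaged, all 63 passaged samples lay above both P0 samples for Ddit3, and 59 of 63 lay below both for Chac1.

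Atf4, the transcription factor at the centre of the response, was not called between P0 and P6 in any route. Its level was 4.10 and 4.46 at P0, 4.09 to 4.31 in KPT P6, 4.08 to 4.40 in T-LM P6, and 3.69, 3.66 and 3.76 in K-LM P6. All 3 K-LM P6 samples lay below the P0 range, and so, narrowly, did replicate 2 of KPT P6 and of T-LM P6. The change from P0 was -0.16 ± 0.18 in KPT (limma, adjusted p = 0.719), -0.13 ± 0.21 for T-LM (limma, adjusted p = 0.808) and -0.52 ± 0.25 for K-LM (limma, adjusted p = 0.248). The last was -0.86 (limma, adjusted p = 0.0053) with the deposited quantile-normalised values. Over all passages Atf4 had the second narrowest range of the 10, from 3.57 to 4.86, and 8 of 63 passaged samples lay above P0 and 26 below it.

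Trib3 is a pseudokinase that Atf4 and Ddit3 raise and that restrains Atf4 in turn. Its level in KPT P1 was 3.05, 2.38, 2.76, 2.31 and 2.46, and in KPT P6 it was 3.35, 3.44, 3.53, 3.13 and 3.47. Every P6 sample lay above every P1 sample. Trib3 rose by 0.78 ± 0.18 between those passages (limma, adjusted p = 0.00401), in a comparison that called 11.6% of all probes. The corresponding change in T-LM was 0.35 ± 0.19 (limma, adjusted p = 0.204). The P0 samples lay between, at 2.84 and 3.10, and no route was called against P0 at P6, with changes of -0.03 to 0.35. Leaving out 1 library took the KPT value to between 0.71 and 0.90 and lost the call in 6 of 10 cases (KPT P1 replicate 2, 4 or 5, or KPT P6 replicate 2, 3 or 5), with a highest adjusted p of 0.0137 from limma, and without a filter on dim probes the adjusted p was 0.0182. The call was also lost with the index of long against ribosomal protein mRNAs as a covariate. That index averaged -4.18 in KPT P1 and -4.77 in KPT P6.

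Chac1, an enzyme that degrades glutathione and an Atf4 target, went the other way from Ddit3. Its level was 1.07 and 1.25 at P0, -0.27, -0.05, -0.16, -0.16 and -0.32 in KPT P6, and -0.33, -0.72, -0.19 and -0.49 in T-LM P6. The K-LM P6 samples were higher, at 0.13, 0.34 and 0.52, yet all P6 samples lay below P0. Chac1 fell by 1.20 ± 0.23 from P0 to P6 in KPT, to 0.435 of the P0 level (limma, adjusted p = 0.00256). It fell by 1.40 ± 0.29 in T-LM, to 0.378 of it (limma, adjusted p = 0.00228). In K-LM the change was -0.95 ± 0.41 (limma, adjusted p = 0.178). That value includes a term for the later slide on which all K-LM P6 arrays lie, and comparing only arrays of that slide gave -1.03 (limma, adjusted p = 0.00155). Without P0 replicate 1 the change was -1.29 in KPT (limma, adjusted p = 0.0272) and -1.49 in T-LM (limma, adjusted p = 0.023). Without P0 replicate 2 it was -1.11 in KPT (limma, adjusted p = 0.0604) and -1.31 in T-LM (limma, adjusted p = 0.0459).

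Chac1 differed from Ddit3 in its timing too. The first passage left it near P0 in T-LM, at 1.28, 1.02, 1.16, 1.20 and 0.92. In KPT P1 it was at 0.92, 0.87, 0.72, 0.33 and 0.36, all below the averaged P0 levels, with a change of -0.33 ± 0.23 (limma, adjusted p = 0.372). Chac1 read 0.39 higher on the repeat array than on the first for both P0 samples, while KPT P1 has first arrays only. That order therefore holds for the averaged P0 levels only. Between P1 and P6 Chac1 fell by 0.87 ± 0.17 in KPT (limma, adjusted p = 0.00131) and by 1.55 ± 0.21 in T-LM (limma, adjusted p = 1.87e-05), and these comparisons use no P0 sample. Both calls stood in every leave-one-out fit and in all 10 other settings. In T-LM levels were already at -0.67, 0.06 and -0.10 by P3. In KPT the samples of P5 still lay at 0.98, 1.03, 0.21, 0.41 and 0.47, all above P6, and the last step was -0.85 ± 0.17 (limma, adjusted p = 0.0118). K-LM was uneven, with 1.80, 0.36 and -0.34 at P4, -0.51 to -0.44 at P5 and a higher level again at P6.

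Counted over the 10 genes, the P0 to P6 comparison called 2 in KPT (Ddit3 higher, Chac1 lower), where 3.88% of all probes were called. It called the same 2 in T-LM against 7.31%, and Ddit3 alone in K-LM against 4.82%. The median change of the 10 was 0.04, -0.10 and -0.15, against -0.01, 0.00 and 0.00 over all probes. From P0 to P1 it called 1 gene in KPT (Ddit3) against 4.41%, and 0 in T-LM against 2.57%, where 2 had an unadjusted p under 0.05. From P1 to P6 it called 2 genes in KPT (Trib3, Chac1) against 11.6%, and 1 in T-LM (Chac1) against 9.27%. From P3 to P6, the later passages, limma called 0 genes in KPT against 0.686% and 0 in T-LM against 7%, with 2 and 0 at an unadjusted p under 0.05, and 1 in K-LM against 3.53%. The P3 to P6 change was not called as different between routes for any of the 10, with a lowest adjusted p of 0.173 for the test of that difference, which called 0.198% (T-LM minus KPT), 0.305% (K-LM minus KPT) and 0.797% (K-LM minus T-LM) of all probes.

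**Figure D2:**
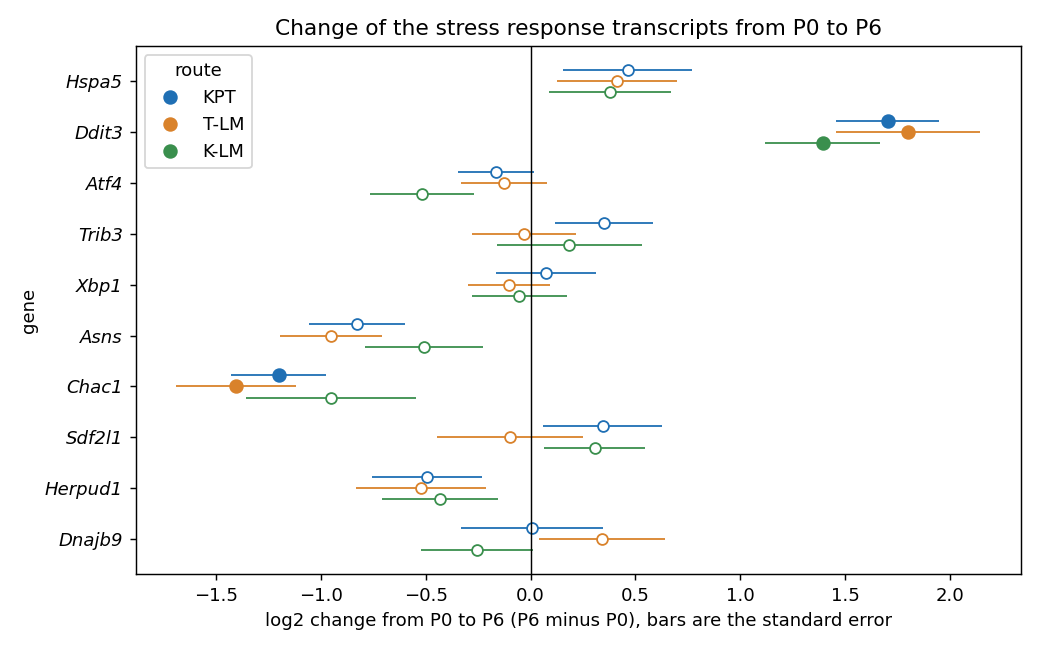
Change from P0 to P6 (log2, horizontal axis, ± SE) of the 10 genes along each route, with filled points for changes past the threshold of adjusted p at most 0.01. Ddit3 lies right of 0 in all 3 routes and Chac1 left of it, filled in KPT and T-LM.

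Asns, asparagine synthetase, is the classic amino acid shortage target of Atf4. Its level was 3.57 and 3.78 at P0, and 59 of 62 measured passaged samples lay below both, with 0 above. At P6 it was 3.14, 3.12, 3.16, 2.76 and 3.25 in KPT. The T-LM samples were at 3.18, 2.60, 3.05 and 3.26, and those of K-LM at 2.96, 2.98 and 3.02. All P6 samples lay below P0, but the P0 to P6 changes missed the threshold, at -0.83 ± 0.23 in KPT (limma, adjusted p = 0.0389), -0.95 ± 0.24 for T-LM (limma, adjusted p = 0.0124) and -0.51 ± 0.28 for K-LM (limma, adjusted p = 0.339). The T-LM change passed in 3 of 10 other settings: with the index as covariate (-0.94, limma, adjusted p = 0.0092), with slide as a random block (-0.96, limma, adjusted p = 0.00952) and with scaling to the 75th percentile of all probes (-1.17, limma, adjusted p = 0.00532), which also moved the median of all probes from 0.00 to -0.22. Most of the distance was there at P1, at -0.88 ± 0.22 in KPT (limma, adjusted p = 0.0146) and -0.78 ± 0.23 in T-LM (limma, adjusted p = 0.038), and the P1 to P6 change was 0.05 in KPT and -0.17 in T-LM.

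Atf4 also drives genes of serine, one-carbon and amino acid synthesis, a list of 14 genes here, of which 12 could be tested. From P0 to P6, 3 of them fell along KPT, 4 along T-LM and 3 along K-LM and none rose, where 0.472%, 1.41% and 1.16% of all probes fell. The other 8 or 9 did not pass, and each route is set against the same 2 P0 samples. The median of the list was -0.70, -0.92 and -0.92, with 0, 0 and 1 of 12 changes above 0. Psat1, which makes phosphoserine, fell in all 3 routes. Its level was 2.02 to 2.30 at P0 and 1.13 to 1.35, 0.99 to 1.22 and 1.12 to 1.26 at KPT, T-LM and K-LM P6, and Psat1 fell by 0.95 (limma, adjusted p = 0.000987), 1.05 (limma, adjusted p = 6e-04) and 1.02 (limma, adjusted p = 0.000611).

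Other genes of the list fell in 1 or 2 routes. Mthfd2, the mitochondrial folate enzyme, fell by 0.92 in T-LM (limma, adjusted p = 0.00287) and by 1.15 ± 0.23 in K-LM (limma, adjusted p = 0.00172), and its change in KPT was -0.68 (limma, adjusted p = 0.0365). Pck2, mitochondrial phosphoenolpyruvate carboxykinase, fell by 1.08 ± 0.18 in KPT (limma, adjusted p = 0.000759). Gpt2, which interconverts alanine and glutamate with their keto acids, fell by 1.53 ± 0.36 in T-LM (limma, adjusted p = 0.0077). Cth, which makes cysteine, fell by 1.36 ± 0.32 in K-LM (limma, adjusted p = 0.00828). Shmt2 fell by 0.72 in KPT (limma, adjusted p = 0.00204) and Phgdh, the first enzyme of serine synthesis, fell by 0.92 in T-LM (limma, adjusted p = 0.00257).

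As with Asns, much of this difference was present at P1, though some genes were higher again at P2. The list's median from P0 to P1 was -0.68 in KPT, with 3 of 13 lower, and -0.52 in T-LM, with 3 of 12 lower, where 1.13% and 0.435% of all probes fell. Psat1 (-1.23 ± 0.28, limma, adjusted p = 0.00744), Psph (-1.08 ± 0.22, limma, adjusted p = 0.00332) and Mthfd2 (-0.90, limma, adjusted p = 0.00249) fell in KPT. Mthfd2 (-0.95 ± 0.18, limma, adjusted p = 0.00265), Psat1 (-0.85 ± 0.17, limma, adjusted p = 0.0041) and Phgdh (-0.83 ± 0.18, limma, adjusted p = 0.00642) fell in T-LM. All these comparisons rest on the same 2 P0 samples. Between P3 and P6 the list's median was -0.08 along KPT, -0.15 along T-LM and 0.28 along K-LM. Psat1 averaged 0.91, 1.71 and 1.22 at KPT P1, P2 and P6, against 2.16 at P0. Phgdh averaged 2.69, 3.42, 3.40 and 2.60 at T-LM P1, P2, P3 and P6, against 3.45 at P0. Mthfd2 stayed lower at these T-LM passages, at -1.74, -1.73, -1.49 and -1.71, against -0.78 at P0. From T-LM P3 to P6 Phgdh fell by 0.80 (limma, adjusted p = 0.00325) and Cth rose by 1.21 (limma, adjusted p = 0.00944).

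**Figure D3:**
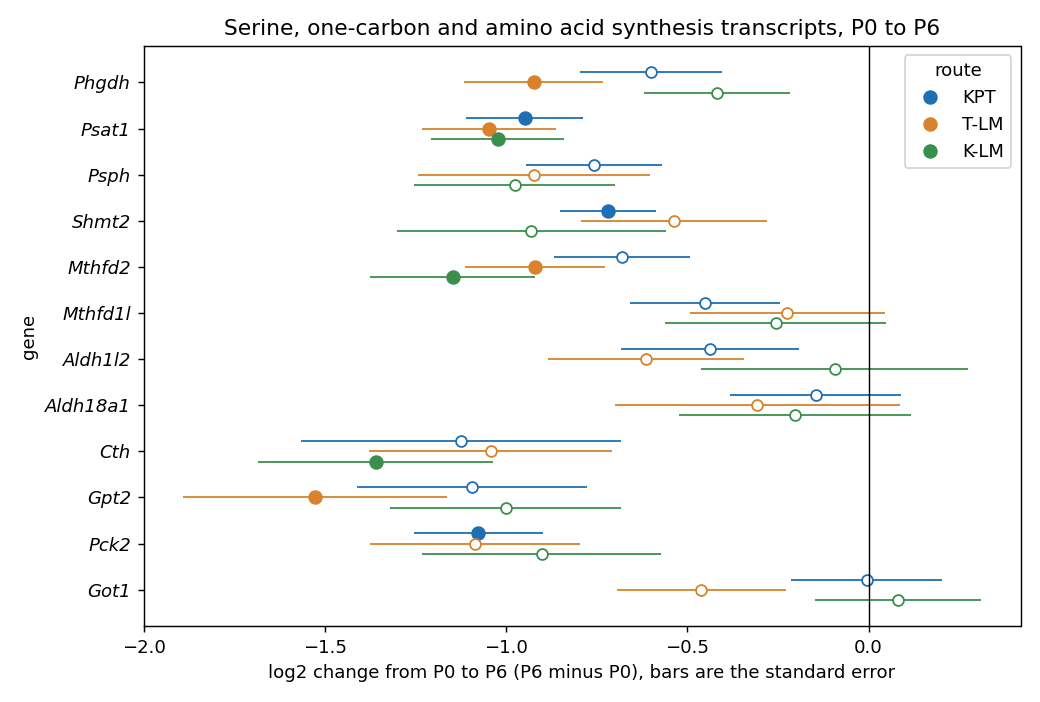
Change from P0 to P6 (log2, horizontal axis, ± SE) of the tested genes of the serine, one-carbon and amino acid synthesis list in the 3 routes. None of the 12 changes lies above 0 in KPT or T-LM, and 1 does in K-LM.

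The 9 amino acid transporters held large changes in opposite directions. Slc7a3, a transporter of cationic amino acids, had a level of -6.58 and -5.63 at P0, well above background on 2 of 4 arrays, -2.99 to -2.79 in KPT P6, -2.81 to -2.29 in T-LM P6 and -6.34 to -3.70 in K-LM P6. It rose by 3.33 ± 0.31 in KPT (limma, adjusted p = 1.66e-06) and by 3.73 ± 0.28 in T-LM (limma, adjusted p = 2.23e-08), sizes that rest on a P0 level partly at background. Between passages at which every array was above background, it rose by 2.15 ± 0.22 from KPT P1 to P6 (limma, adjusted p = 1.67e-06) and by 2.31 ± 0.25 from T-LM P3 to P6 (limma, adjusted p = 4.19e-06). Slc7a11, the cystine and glutamate exchanger, was above background on all P0 arrays but on no KPT P6 or K-LM P6 array and on 1 of 4 T-LM P6 arrays. It was at least 2.66-fold lower in KPT P6 (limma, adjusted p = 0.00028) and at least 3.04-fold lower in K-LM P6 (limma, adjusted p = 0.00202). Such a bound sets the mean of the brighter group against the lowest signal well above background on the dimmer group's arrays, or the probe's own where that is higher. The median of the list was -0.34, -0.73 and -0.64 in KPT, T-LM and K-LM.

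Among regulators, Ppp1r15a (GADD34), which directs dephosphorylation of eIF2 and is a Ddit3 and Atf4 target, rose in KPT and in T-LM, as Ddit3 did. Its level was -0.58 and -0.01 at P0, 1.36 to 1.70 in KPT P6, 0.74 to 1.37 in T-LM P6 and 0.21 to 0.34 in K-LM P6. Earlier K-LM means were higher than at P6, at 1.13, 0.78 and 1.59 for P3, P4 and P5. It rose by 2.01 ± 0.39 in KPT (limma, adjusted p = 0.0036) and by 1.57 ± 0.26 in T-LM (limma, adjusted p = 0.000295). It was the only 1 of 17 sensor and eIF2 genes called from P0 to P6 in KPT and in T-LM, and 0 of 17 were called in K-LM, shares near the 3.88%, 7.31% and 4.82% of all probes called. Of the stress transcription factors and feedback genes, 2 fell in KPT: Ddit4, an inhibitor of mTORC1, by 1.68 ± 0.21 (limma, adjusted p = 3.42e-05), and Atf5 by 0.70 (limma, adjusted p = 0.00743). None of the 10 was called in T-LM or K-LM. Of the secreted and death targets, Fgf21 (-2.06 ± 0.41, limma, adjusted p = 0.0017) and Bbc3 (-1.24 ± 0.21, limma, adjusted p = 0.000325) fell in T-LM. None of 12 aminoacyl-tRNA synthetases was called by limma in any route, with medians of -0.18, -0.22 and -0.29.

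Hspa5, the main ER chaperone, was above P0 in most samples without passing the test. Its level was 2.45 and 2.87 at P0, with repeat arrays averaged, and 57 of 63 passaged samples lay above both. For P0 replicate 2 the repeat array read 0.57 below the first, so fewer samples lay above its first array alone. At P6 it was 3.21 to 3.37 in KPT, 3.07 to 3.43 among T-LM samples and 3.14, 3.06 and 2.74 among those of K-LM, so that 1 K-LM sample lay within the P0 range. The changes were 0.46 ± 0.31 in KPT (limma, adjusted p = 0.48), 0.41 ± 0.29 for T-LM (limma, adjusted p = 0.455) and 0.38 ± 0.29 for K-LM (limma, adjusted p = 0.542). The 2 P0 samples were themselves 0.41 apart in averaged level, and further apart on their first arrays.

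No P0 to P6 change of the other ER genes passed either. Xbp1, the factor spliced by Ern1, was at 0.58 and 0.85 at P0, and its P0 to P6 changes ran from -0.10 to 0.07. Sdf2l1, a partner of ER chaperones that slows aggregation, was at -1.06 and -1.26, with changes of -0.10 to 0.34. Herpud1, an ER membrane protein of the degradation machinery, was at 0.05 and 0.24, and 48 of 62 measured passaged samples lay below both, with changes of -0.52 to -0.43 (limma, adjusted p from 0.348 to 0.439). In the wider lists 0 of 18 chaperones and folding enzymes were called from P0 to P6 in each route by limma, with medians of 0.12, 0.00 and 0.19, and 0 of 14, 12 and 13 tested degradation genes. With 3.88%, 7.31% and 4.82% of all probes called, lists of this size would hold few calls, so a count of 0 says little about them.

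Dnajb9, an ER co-chaperone of Hspa5 and a target of spliced Xbp1, was the 1 gene of the 10 called between P3 and P6, and only in K-LM. Its level there was -2.57, -2.12, -3.04, -2.23 and -2.37 at P3 and -3.34, -3.51 and -3.10 at P6, with no overlap, against -3.07 and -3.33 at P0. It fell by 1.13 ± 0.24 (limma, adjusted p = 0.00605), with the term for the later slide. The index of long against ribosomal protein mRNAs moved from -6.70 at K-LM P3 to -4.76 at P6, and with it as a covariate the change was -1.04 (limma, adjusted p = 0.111). The call was also lost without a filter on dim probes (limma, adjusted p = 0.0227) and with a replicate block (limma, adjusted p = 0.0302). The means differ by 0.85, and a fit of only these groups, where passage and slide cannot be told apart, gave -0.85 (limma, adjusted p = 0.0415). Leaving out single libraries gave -1.27 to -1.03 and lost the call in 6 of 8 cases (all but K-LM P3 replicates 1 and 3), with a highest adjusted p of 0.0368 from limma. The P3 to P6 change was -0.89 ± 0.34 in KPT (limma, adjusted p = 0.128) and -0.49 ± 0.26 in T-LM (limma, adjusted p = 0.239). A second Dnajb9 probe, above background on 14 of 70 arrays, gave -1.15 in K-LM (limma, adjusted p = 0.0141).

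**Figure D4:**
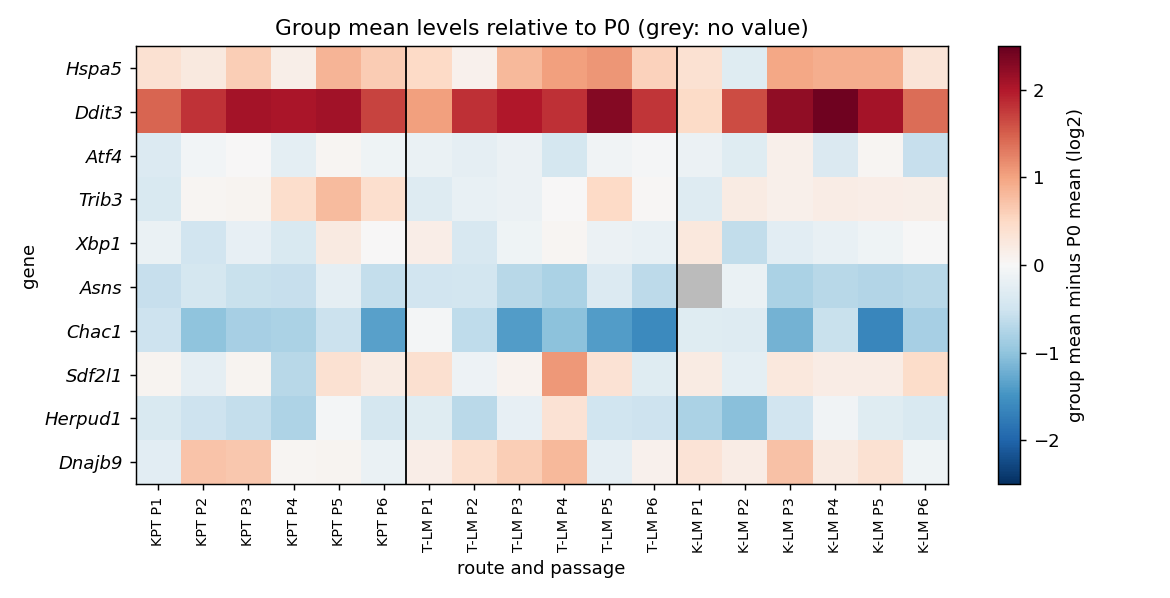
Mean level of each group minus the P0 mean (log2, colour) for the 10 genes (rows) at each passage of the 3 routes (columns), with grey where no value was measured. With repeat arrays averaged, Ddit3 is above P0 and Chac1 below it in every passaged group. Sdf2l1, Xbp1 and Dnajb9 lie above P0 at some passages and below it at others.

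The passages between the ends of a route were compared as well. An F test over P0 and passages P2 to P6, with P1 left out, called Ddit3 and Chac1 in KPT, where 9.37% of probes were called. In T-LM it called Ddit3, Chac1, Sdf2l1 (limma, adjusted p = 0.00906) and Dnajb9 (limma, adjusted p = 0.0099), against 20.6%, and in K-LM Ddit3, against 18.3%. T-LM P4 stood high for Sdf2l1, Herpud1 and Dnajb9. Sdf2l1 was at -0.50, -0.39, 0.56 and 0.04 there, Herpud1 at 0.35, 0.38, 0.84 and 0.43, and Dnajb9 at -2.89, -1.90, -2.56 and -2.19. All 4 Sdf2l1 and Herpud1 values lay above P0. Hspa5 did not peak there, with means of 3.48, 3.69 and 3.77 at T-LM P3, P4 and P5. Xbp1 averaged 0.76 at T-LM P4, within its P0 range of 0.58 to 0.85. From T-LM P4 to P5 Dnajb9 fell by 1.03 ± 0.22 (limma, adjusted p = 0.00334), the 1 call among the 10 where 11.9% of probes were called. Herpud1 changed by -0.86 ± 0.23 (limma, adjusted p = 0.0121) and Sdf2l1 by -0.72 ± 0.26 (limma, adjusted p = 0.0484), which did not pass. Leukocyte markers moved with these steps: 5 of 10 rose from T-LM P3 to P4 (median 2.06) and 5 of 10 fell from P4 to P5 (median -1.55). Of the 10, 6, 9 and 5 were above background on all arrays of T-LM P3, P4 and P5, and their summed level was 2.02 to 2.65, 2.12 to 2.50 and 1.92 to 2.51. Fibroblast markers rose in 4 of 7 cases from P3 to P4, and 0 of 7 were called from P4 to P5. The part of these cells in the steps was not tested.

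In KPT the order was different. All 10 genes were higher at P5 than at P4 and all 10 were lower at P6 than at P5, a pair of steps that share the P5 samples. The limma fit called 0 of 10 in either step, where 1.21% and 0.977% of probes were called, and 4 of 10 had an unadjusted p under 0.05 in each. The largest change was that of Sdf2l1 from P4 to P5, 1.06 ± 0.25 (limma, adjusted p = 0.0181), from -1.40, -2.47 and -1.67 to -0.38, -0.30, -0.89, -1.25 and -1.10. KPT P4 held the lowest value of all 65 samples for Hspa5, Xbp1, Sdf2l1 and Herpud1, in replicate 3 or 5. The index of long against ribosomal protein mRNAs moved with these steps, at -4.58, -5.81 and -4.77 in KPT P4, P5 and P6, and its part was not tested.

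None of the 10 genes was called by limma between routes at P6. KPT against T-LM called 0 of 10 with 3 at an unadjusted p under 0.05, where 11.5% of all probes were called. KPT against K-LM called 0 with 2 unadjusted, against 16.1%, and T-LM against K-LM called 0 with 5 unadjusted, against 11.9%. The nearest was Atf4, with a K-LM minus KPT difference of -0.40 (limma, adjusted p = 0.0174) and no overlap between 3.66 to 3.76 and 4.09 to 4.31. With the deposited values the difference was -0.83 (limma, adjusted p = 2.77e-05), while a second Atf4 probe, which correlated with the first at 0.46 over the samples, gave -0.39 (limma, adjusted p = 0.288). Chac1 was higher in K-LM than in T-LM by 0.53 (limma, adjusted p = 0.0363).

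Other genes of the pathway did differ at P6. Ddit4 was at 1.60 to 1.90 in KPT, 2.17 to 3.00 among T-LM samples and 2.95 to 3.11 among those of K-LM, and was higher than in KPT by 0.73 ± 0.15 in T-LM (limma, adjusted p = 0.00209) and by 1.36 ± 0.18 in K-LM (limma, adjusted p = 2.97e-05). Gdf15, a secreted stress cytokine, was at 1.98 to 2.35 in KPT and lower in both others, with a difference of -1.20 ± 0.19 for T-LM (limma, adjusted p = 0.000237) and of -1.06 ± 0.23 for K-LM (limma, adjusted p = 0.00265). K-LM minus KPT was -1.31 ± 0.21 for Ppp1r15a (limma, adjusted p = 0.000211) and -2.18 ± 0.41 for Slc7a3 (limma, adjusted p = 0.000738). Stc2, a secreted glycoprotein induced by ER stress, was above background on all 4 T-LM P6 arrays and on none of KPT or K-LM P6, and was at least 2.93-fold and 3.35-fold higher in T-LM (limma, adjusted p = 3.85e-05 and 0.00391). Earlier passages varied. In T-LM it was above background on 4 of 5, 4 of 4 and 1 of 6 arrays at P1, P4 and P5. In KPT this held for 2 of 5 arrays at P1 and at P5, and in K-LM for the 1 array of P1 and 1 of 3 at P4. All K-LM P6 arrays lie on the later slide, for which the fit holds a term estimated from repeat arrays of 5 samples.

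Over the RNA samples that measured both genes, up to 65, Hspa5, Sdf2l1 and Herpud1 varied together and Dnajb9 did so less. The Pearson correlation was 0.60 between Hspa5 and Sdf2l1, 0.60 between Sdf2l1 and Herpud1, and 0.57 between Hspa5 and Herpud1. After the group means were removed the values were 0.61, 0.48 and 0.73 over at most 63 samples. Pairs that reach outside these genes came near. Hspa5 with Ddit3 was at 0.56 (0.46 within groups) and Xbp1 with Sdf2l1 at 0.54 (0.46). Hspa5 with Atf4 was at 0.47 (0.67 within groups) and Ddit3 with Herpud1 at 0.21 (0.60). Dnajb9 reached 0.27 with Hspa5, 0.25 with Herpud1, 0.07 with Sdf2l1 and -0.11 with Xbp1. Trib3 and Asns reached 0.55, and 0.76 within groups. The other pairs of the 4 genes with an Atf4 type element were lower. Asns and Chac1 were at 0.39 (0.31 within groups), Chac1 and Herpud1 at 0.13 (0.11) and Trib3 and Herpud1 at 0.08 (0.16). Asns and Herpud1 were at -0.02 (0.01 within groups), and Trib3 and Chac1 at -0.05 but 0.46 within groups. Among 10471 genes the most similar profile was that of Manf for Hspa5 (0.80), Creld2 for Sdf2l1 (0.76) and Creld2 for Herpud1 (0.66). Manf and Creld2 are secreted ER stress proteins. For Asns the nearest were Tox4 (0.79) and Gars, glycyl-tRNA synthetase (0.76). For Ddit3 they were Gm867 (0.82) and Angptl6 (0.78), and for Chac1 Gpr107 (0.75). These correlations describe samples that share slides, P0 ancestry and passage, and carry no test.

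**Figure D5:**
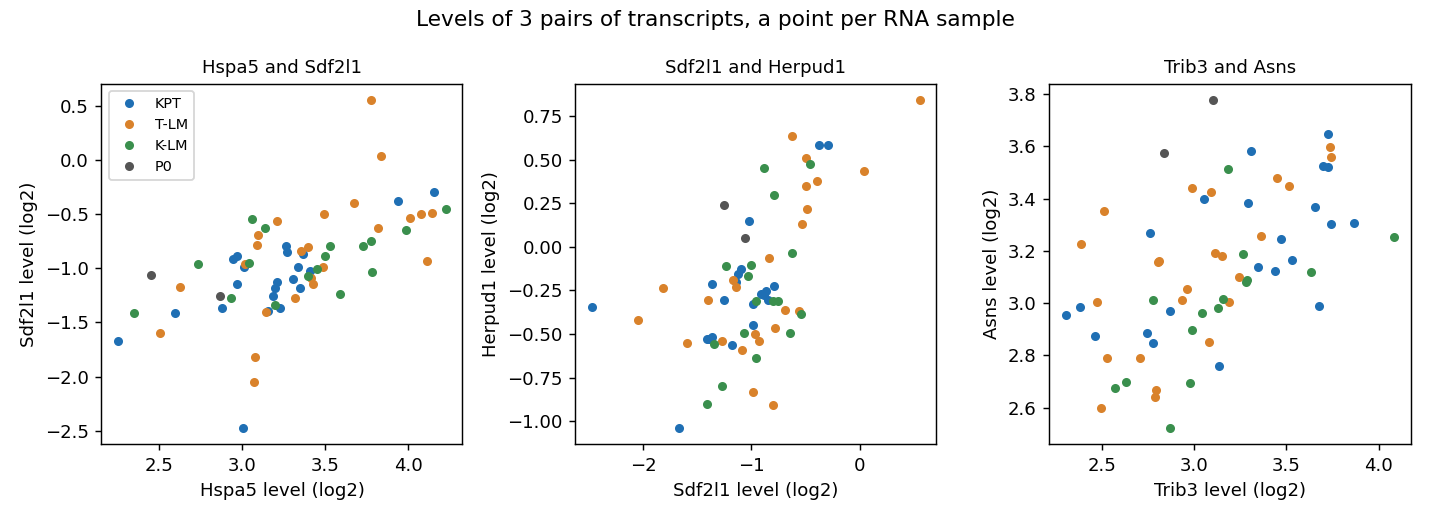
Level of 1 gene against another (log2 relative to the array's 75th percentile, both axes) for Hspa5 and Sdf2l1, Sdf2l1 and Herpud1, and Trib3 and Asns, with 1 point per RNA sample. The Pearson correlations are 0.60, 0.60 and 0.55.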

How the data were processed

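Processed intensities (Agilent Feature Extraction, background-subtracted red signal) of 70 arrays from 65 RNA samples were used as deposited, and the authors' log2 table of the same arrays, which matches quantile-normalised median signal, served as an alternative. Each log2 intensity was scaled to its array's 75th percentile over 11287 probes well above background on all arrays. Control and flagged spots were left out, and the brightest probe stood for a gene. No member was saturated. Trib3, Asns and Herpud1 each lacked 1 sample through flagged spots.

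Models were fitted with limma 3.58.1 (R 4.3.3; statmod 1.5.0) over each route with P0, or over P0 and the P6 groups of all routes, on probes well above background on at least 2 arrays. The KPT and T-LM fits used first hybridisations only. Printed levels average repeat arrays, so a fitted change can differ from the difference of printed levels. A fit of all arrays tested the P3 to P6 difference between routes. In the K-LM, P6 and all-array fits the RNA sample was a random block. A term there marked the late slide, which held 8 arrays: K-LM P6 and repeats of 5 samples. Tests were 2-sided with Benjamini-Hochberg adjustment over all probes tested. Between 25.2% and 55.2% of probes were well above background per array. The test code was checked on simulated data. The members and gene lists were chosen with earlier results of these data known. Pathway genes named are among the 3 largest called rises and falls per comparison. Values of Psat1, Mthfd2, Phgdh, Shmt2 and Atf5 outside that rule were chosen after they were seen. Alternatives changed the scaling, background correction, filter, blocks, covariates and samples.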

Additional observations from a re-analysis of the deposited data

Results flagged for a closer look

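In groups of 4 to 10 samples, a sample was singled out where its gap to the next was large against the range of its group (Dixon's critical value). This happened in 6 of 90 sets of a gene and a group, and chance gives about 1 in 20. Ddit3 in T-LM P6 replicate 2 was at 0.0767 where the others were at 0.54 to 0.63, still above P0. Chac1 in T-LM P5 replicate 1 was at 0.53 against -0.46 to -0.26. Asns in KPT P6 replicate 4 was at 2.76 against 3.12 to 3.25. Trib3 in KPT P5 replicate 4 was at 3.87 against 3.70 to 3.74. Hspa5 in KPT P1 replicate 5 was at 3.41 against 2.88 to 3.01. Herpud1 in T-LM P1 replicate 2 was at 0.63 against -0.47 to -0.19. The cause of these values was not tested.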

How the results depend on the processing

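Single changes were followed over other settings only where the main limma fit gave an unadjusted p under 0.05, which included none of Hspa5 or Herpud1. None of the changes followed reversed, and smaller changes were not checked in this way. For these 35 changes of single members, 328 values under another setting kept their side of the threshold, 9 lost it and 21 passed newly. With 1 sample left out, 237 kept it, 22 lost it and 2 passed newly. The counts of members called stayed at 0 from P3 to P6 in KPT and T-LM and between KPT and T-LM at P6. From P0 to P6 the count fell from 2 to 1 in KPT with a replicate block, was 3 in KPT with late-slide arrays alone and 3 in T-LM with the index or a slide block, and rose from 1 to 2 in K-LM with late-slide arrays alone, deposited values, normexp or only the groups compared. From P3 to P6 in K-LM it fell from 1 to 0 with the index as covariate, no filter, only the groups compared or a replicate block, and rose to 2 with deposited values or normexp. From P0 to P1 it went from 1 to 2 in KPT with all-probe scaling or a slide block and to 0 with only the groups compared, and from 0 to 1 in T-LM with all-probe scaling. From P1 to P6 it fell from 2 to 1 in KPT with the index or no filter, and rose from 1 to 2 in T-LM with the index. In the F test over P0 and P2 to P6 it fell from 2 to 1 in KPT (index, deposited values, no filter, normexp, replicate block). It rose from 1 to 4 in K-LM (deposited values, normexp, 1 model for all arrays, slide block). In T-LM it fell from 4 to 1 without a filter and to 0 with a replicate block, and was 6 with 1 model for all arrays. At P6, KPT against K-LM rose from 0 to 1 (index, deposited values, normexp, slide block), and T-LM against K-LM from 0 to 1 (deposited values, normexp, only the groups compared, slide block). The cause was not tested.

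Leaving out 1 sample gave F test counts of 0 to 2 in KPT, 0 to 4 in T-LM and 1 to 3 in K-LM. For P0 to P6 they were 0 to 2, 0 to 2 and 0 to 1, for P3 to P6 0 to 0, 0 to 0 and 0 to 2, for P0 to P1 0 to 2 in KPT and 0 to 0 in T-LM, for P1 to P6 1 to 2 in KPT and 1 to 1 in T-LM, and at P6 0 to 0 throughout. Scaling by all probes moved the median of all probes from 0.14 to -0.27 for T-LM P0 to P1 and from 0.00 to -0.22 for T-LM P0 to P6. Replicate numbers did not pair samples, with same-number correlations of -0.435 to 0.439 across groups. With the replicate block Chac1 in KPT from P0 to P6 was -1.02 (limma, adjusted p = 0.0155). Precision is limited by the number of arrays, above all the 2 P0 samples.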
